A study of Mus musculus with 4 samples.

Results

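Interferon-high mature neutrophils of mouse bone marrow were 911 of the 18817 bone marrow barcodes that passed the quality filter, and of 43059 barcodes in the whole series. They were chosen by a rule on UMIs (unique molecular identifiers, each counting 1 captured RNA molecule). Barcodes needed 200 or more detected genes, with mitochondrial UMIs making up no more than 10%. A barcode was called a neutrophil where S100a9, a calcium-binding protein that neutrophils hold in large amounts, made up at least 4% of UMIs counted without S100a8. It was called mature where the secondary granule genes Ngp, Camp and Ltf, which are transcribed at earlier stages, together stayed under 2% of UMIs counted without S100a8 and S100a9. A mature neutrophil was interferon-high with at least 2 UMIs of Ifit1, Ifit3 and Rsad2 summed, here called the gate genes. The rule found 591 such cells in the KO library, among 3723 mature and 7500 neutrophils in all, and 320 in the WT library, among 1568 mature and 3946 neutrophils in all.

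The KO library came from mice with S100a8 fl/fl and Vav-Cre+/-, in which Vav-driven Cre deletes the floxed S100a8 gene in blood-forming cells. The WT library came from S100a8 fl/fl mice with Vav-Cre-/-, so that both groups carried the floxed alleles. The marrow was from tumor-free mice, CD45-positive leukocytes were sorted, and the cells of 3 mice were pooled into 1 droplet library per genotype, so that mice cannot be told apart. The sources used here give neither the age of the mice nor a replicate library, so each difference below sets 1 library against another, with no test. Intervals are at 95% and cover counting error; variation among animals, sorts and cells is not in them.

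The KO library held 11070 barcodes and 51776813 UMIs, and the WT library 8126 barcodes and 32906493 UMIs. S100a8 (ENSMUSG00000056054, chr3:90668978-90670035 in GRCm38) had 7 UMIs in the whole KO library and 0 in its interferon-high cells, against 2301866 UMIs in the WT library and 82573 in its 320 interferon-high cells, all of which had the transcript. Because S100a8 takes a large part of WT neutrophil UMIs, every level below is given in CPM, here the UMIs of a gene in 1000000 UMIs counted without S100a8 and S100a9, summed over the cells of a group. On that count, interferon-high cells had a median of 1846 UMIs in KO and 1271 in WT, and the other mature neutrophils, with fewer than 2 gate UMIs, 1550.5 in KO and 1064.5 in WT. The 2 libraries shared 33 barcode sequences, of which 1 was an interferon-high cell in KO and 0 in WT. Barcodes with the highest doublet scores were few but deep: 32 of the KO interferon-high cells held 10.3% of the group's UMIs, and 31 of the WT cells held 29.6%. For that reason the counts of genes between the genotypes are also given without them. So are some of the single genes where leaving them out turns a direction, crosses 1.5-fold or moves a ratio by more than that.

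Type I interferons bind the paired receptor of IFNAR1 and IFNAR2, whose kinases activate transcription factors. These enter the nucleus and bind interferon-stimulated response elements in the promoters of interferon-stimulated genes. The induced proteins include the IFIT proteins, which bind viral RNA, viperin (Rsad2), which makes a nucleotide that stops viral RNA synthesis, and ISG15, a ubiquitin-like protein that is joined to other proteins. In mouse bone marrow, neutrophils lose granule gene transcripts as they mature, and a part of the mature cells carries interferon-stimulated transcripts.

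Promoter windows of the 3 gate genes, Isg15 and 3 other genes high in the group are shown because they hold a short element that interferon-activated factors are known to bind. Only windows with a match are shown: of the 10 genes with the highest ratios 8 had a promoter in the table and 4 of those held the element. The search was for GAAA, any 2 bases and GAAA again, on either strand (TTTC, any 2 bases and TTTC when read on the other one), in the 250 bases before the annotated start, in RefSeq promoters of GRCm38.p6. Each window is written 5′ to 3′ on the gene's strand, from 20 bases before the first match to 20 after the last, and capitals mark the matches. Ifit1 (chr19:34640765-34640833, plus strand), Ifit3 (chr19:34583353-34583436, plus) and its near-identical copy Ifit3b (chr19:34607749-34607832, plus) each held 2 matches, Isg15 (chr4:156200855-156200916, minus) held 3 that overlap, and Rsad2 (chr12:26456543-26456592, minus), Slfn5 (chr11:82951927-82951976, plus) and Gbp7 (chr3:142530263-142530312, plus) held 1 each.
Ifit1: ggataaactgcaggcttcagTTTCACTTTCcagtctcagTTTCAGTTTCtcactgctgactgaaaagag
Ifit3: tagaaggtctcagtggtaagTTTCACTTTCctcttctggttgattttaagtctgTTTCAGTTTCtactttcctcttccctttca
Ifit3b: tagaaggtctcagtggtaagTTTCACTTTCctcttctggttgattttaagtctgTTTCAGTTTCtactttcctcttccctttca
Rsad2: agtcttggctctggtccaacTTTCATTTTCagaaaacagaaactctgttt
Isg15: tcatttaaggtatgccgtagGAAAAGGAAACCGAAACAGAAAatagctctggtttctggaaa
Slfn5: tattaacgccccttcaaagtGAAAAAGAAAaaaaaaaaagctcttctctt
Gbp7: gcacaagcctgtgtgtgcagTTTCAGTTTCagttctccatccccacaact

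The first match lay 104 bases before the start in Ifit1, 156 in Ifit3, 188 in Ifit3b, 120 in Rsad2, 78 in Isg15, 155 in Slfn5 and 53 in Gbp7. The printed Ifit3 and Ifit3b windows are the same sequence, and UMIs of these neighbors can have been split between them by the counting. Across 27025 genes with a promoter in the RefSeq table, 936 held the element, or 3.46%. Among the interferon genes that are described below as higher in interferon-high cells of both libraries, 29 of 40 had a promoter in the table and 11 of those 29 held it (37.9%). Among the other measured interferon genes 23 of 73 did (31.5%), and among genes of neutrophil maturation 1 of 25 (4.00%). A match is a description of these letters and shows no binding.

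The label was checked against markers that the rule did not use. Neutrophil markers were strong: all 10 of Csf3r, Retnlg, Mmp8, Mmp9, Cxcr2, Ly6g, Il1r2, Hdc, G0s2 and Mxd1 were detected in interferon-high cells of both libraries, at 46819 CPM in KO and 55996 in WT, and every interferon-high cell had at least 2 of their UMIs. Isg15 (chr4:156199424-156200818), the fourth gene named for the label but not in the rule, was found in 35.7% of interferon-high and 12% of other mature neutrophils in KO, and in 30.6% and 11.6% in WT. All 10 monocyte markers were also detected, at 1710 CPM in KO and 1844 in WT interferon-high cells, against 1611 in KO and 1298 in WT other mature neutrophils. Ly6c2, which mature neutrophils also carry at low level, led that list in each group. It was at 1314 CPM in interferon-high and 1248 in other cells of KO, and at 1161 and 965 in WT. The WT difference in the list as a whole was thus larger than that of Ly6c2. At least 2 monocyte marker UMIs were found in 58.7% of KO and 43.1% of WT interferon-high cells, against 48.1% and 28.4% of the other mature neutrophils. B lineage markers stood at 272 CPM in KO and 923 in WT interferon-high cells, and at 232 in KO and 722 in WT other mature neutrophils. Dendritic cell markers stood at 375 CPM in interferon-high and 207 in other mature neutrophils of KO, and at 577 and 417 in WT, and plasmacytoid dendritic markers at 88.2 and 94.9 in KO and at 339 and 265 in WT. T cell markers stood at 50.5 and 48.5 in KO and at 67.7 and 52.7 in WT, NK markers at 7.53 and 21.9 in KO and at 117 and 32.9 in WT, and erythroid markers at 46.7 and 36.3 in KO and at 67.7 and 102 in WT. Leaving out barcodes with 2 or more UMIs of monocyte, B lineage, T, NK, erythroid or megakaryocyte markers kept 223 KO and 157 WT interferon-high cells. The part of these markers in the results was not tested.

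The rule cuts a range rather than a gap. Among mature neutrophils, 65.1% of KO and 58.7% of WT cells had 0 gate UMIs, 19% and 20.9% had 1, and 7.57% and 10.3% had exactly 2, the lowest number inside the rule. Interferon-high cells had a median of 3 gate UMIs in KO and 2 in WT, with highest values of 35 and 36. They were 15.9% of KO mature neutrophils but held 75.7% of their gate UMIs, and 20.4% of WT mature neutrophils but held 76.6%. These values come from the genes of the rule and describe the choice.

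**Figure D1:**
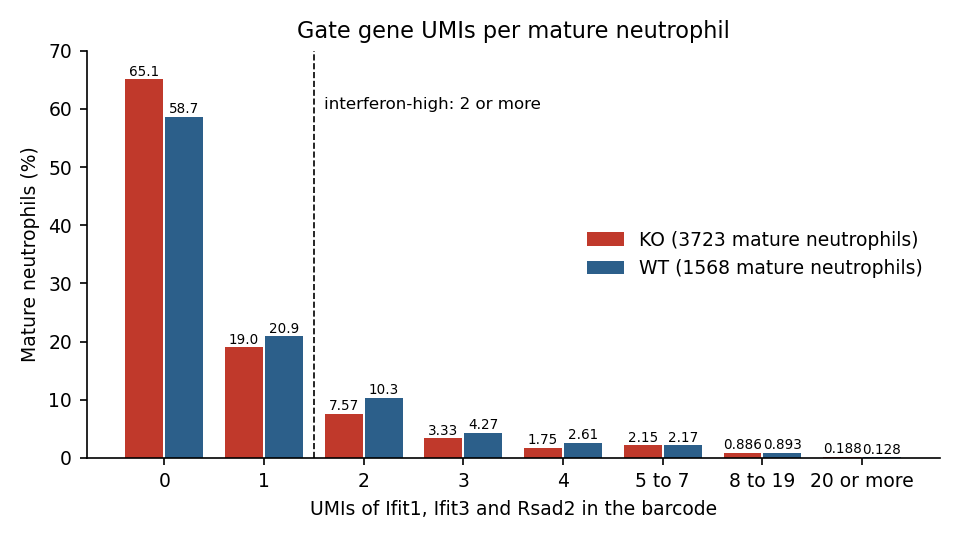
UMIs of Ifit1, Ifit3 and Rsad2 per mature neutrophil (horizontal axis) against the percentage of mature neutrophils of the KO and WT libraries (vertical axis), with the percentage printed above each bar. The dashed line marks the rule, and the cells with 1 UMI just outside it (19% in KO, 20.9% in WT) outnumber those with 2 just inside it (7.57% and 10.3%).

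Rsad2 (chr12:26442746-26456452) carried most of the rule. It gave 66.9% of the gate UMIs of KO interferon-high cells and 68.8% of those of WT, and was present in 93.6% and 94.1% of the cells. Ifit1 (chr19:34640871-34650009) was present in 48.1% of KO and 36.9% of WT interferon-high cells, and Ifit3 (chr19:34583531-34588731) in 16.2% and 25%. In 274 KO cells (46.4%) and 167 WT cells (52.2%) Rsad2 was the only gate gene seen, while 54 KO and 37 WT cells had all 3.

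By share, interferon-high cells were 15.9% of mature neutrophils in KO (14.7 to 17.1) and 20.4% in WT (18.4 to 22.5), a KO to WT ratio of 0.778 (0.688 to 0.879). Of all neutrophils they were 7.88% in KO (7.28 to 8.51) and 8.11% in WT (7.28 to 9.01), a ratio of 0.972 (0.853 to 1.11). Of all kept barcodes they were 5.45% in KO (5.03 to 5.89) and 4.02% in WT (3.6 to 4.47), a ratio of 1.36 (1.19 to 1.55), in libraries where mature neutrophils made up 34.3% of KO and 19.7% of WT barcodes. The direction therefore differs with the denominator.

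KO mature neutrophils were deeper, with a median of 1597 UMIs against 1096 in WT, and the part of depth in the share was not separated from the choice of cells. With the UMIs of every cell drawn down to 800, for which 183 KO and 283 WT cells were too shallow, 6.89% of KO (6.08 to 7.78) and 11.8% of WT cells (10.1 to 13.7) passed, a ratio of 0.583. With the gate set as at least 0.1% of UMIs, which a shallow cell can pass on 1 UMI, 13.9% of KO and 25.1% of WT cells passed, a ratio of 0.553. With at least 2 UMIs of Isg15 in place of the gate genes, 4.19% of KO (3.57 to 4.88) and 4.46% of WT cells (3.50 to 5.61) passed, a ratio of 0.939.

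Summed over all mature neutrophils, which needs no cut, the gate genes stood at 384 CPM in KO and 634 in WT, 1.65 times lower in KO (1.55 to 1.76). The genes differed in size: Ifit3 was 2.97 times lower in KO (2.37 to 3.71, 22.8 against 67.7 CPM), Rsad2 1.69 times lower (1.56 to 1.82, 266 against 448), and Ifit1 1.23 times lower (1.07 to 1.42, 95.5 against 118). Isg15 stood at 112 CPM in KO and 157 in WT mature neutrophils, 1.41 times lower in KO (1.24 to 1.60). In immature neutrophils, those at or above the granule limit, the gate genes stood at 75.9 CPM in KO and 136 in WT, 1.79 times lower in KO (1.65 to 1.94).

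Free RNA in the droplets cannot be told apart here from RNA that a cell made itself. Both count in B lineage barcodes, those with at least 3 UMIs of Cd79a and Cd79b and S100a9 under 4%. Of these, 1.78% in KO (1.02 to 2.88, median depth 1922 UMIs) and 1.00% in WT (0.606 to 1.56, median 1674.5) had at least 2 gate UMIs. Their gate genes stood at 29.1 CPM in KO and 22.5 in WT, below the mature neutrophils of either library.

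Interferon-high cells were higher in a broad set of other interferon-stimulated genes, in both libraries. Of 8224 genes with at least 50 UMIs, leaving out the genes of the rule, 91 were at least 1.5-fold higher in interferon-high than in other mature neutrophils in KO and in WT, or 1.11%, and 314 were lower in both, or 3.82%. Of 159 genes on 11 interferon lists, 126 were measured, 40 were higher in both libraries and 0 lower. Their median log2 ratio, interferon-high over other, was 0.60 in KO and 0.46 in WT, against -0.09 and -0.00 for all measured genes. The lists were chosen with results of these data known, and the cells were chosen by genes of the same response.

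Of the antiviral effectors 7 of 15 measured genes were higher in both libraries. Isg15 was at 284 CPM in interferon-high and 75 in other mature neutrophils of KO, 3.79-fold higher (3.30 to 4.35), and at 304 and 110 in WT, 2.77-fold higher (2.23 to 3.44). Ifit3b (chr19:34607970-34613401) was at 73.8 in interferon-high and 9.28 in other cells of KO, and at 106 and 29.9 in WT, 7.96-fold (5.69 to 11.2) and 3.55-fold higher (2.39 to 5.28). Ifit2, another IFIT gene of the same cluster, was at a low level, at 35.4 and 7.04 in KO and 23.8 and 4.19 in WT. The WT value rests on 13 UMIs in interferon-high cells. Cmpk2, a mitochondrial nucleotide kinase whose gene neighbors Rsad2 on chromosome 12, was at 304 and 107 in KO and at 249 and 127 in WT. Each of these 4 genes was higher inside the group in both libraries.

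OAS genes and sensors of viral RNA and DNA were also higher in part. OAS genes, whose enzymes make the signal that switches on RNase L, were higher in 4 of 8 measured. Oasl1, a family member without that activity, was 3.51-fold higher in interferon-high cells of KO (2.87 to 4.3) and 2.32-fold in WT (1.65 to 3.26), and Oasl2 2.03-fold (1.84 to 2.23) and 1.64-fold (1.44 to 1.86). Among sensors of viral nucleic acid, 3 of 9 were higher: Ifih1, which encodes MDA5, by 3.45-fold in KO (2.62 to 4.53) and 2.24-fold in WT (1.39 to 3.59), Ddx58, which encodes RIG-I, by 2.27-fold (1.93 to 2.66) and 1.68-fold (1.26 to 2.23), and Zbp1, a sensor of Z-form nucleic acid, by 1.99-fold (1.59 to 2.48) and 1.64-fold (1.17 to 2.28).

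Schlafen genes, which act on RNA and on cell growth, were higher in 3 of 6 measured. Slfn5 (chr11:82951349-82964840) was at 526 CPM in interferon-high and 151 in other mature neutrophils of KO, and at 474 and 149 in WT, 3.48-fold (3.15 to 3.84) and 3.18-fold higher (2.66 to 3.80). Slfn8 was 2.81-fold (2.37 to 3.32) and 2.07-fold higher (1.64 to 2.62), and Slfn4 1.67-fold (1.54 to 1.81) and 1.54-fold (1.38 to 1.70). Of the guanylate-binding and immunity-related GTPases, which attack the vacuoles of intracellular microbes, 4 of 8 were higher. Gbp7 was 2.50-fold higher in KO interferon-high cells (2.04 to 3.05) and 2.13-fold in WT (1.49 to 3.02), and Gbp2 3.20-fold (2.44 to 4.16) and 1.82-fold (1.10 to 2.97), although 1 barcode held 32.1% of the Gbp2 UMIs of WT interferon-high cells.

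Of the genes that carry or restrain the interferon signal 5 of 14 were higher in both libraries, and of 6 genes for ISG15 conjugation 3 were. Usp18, which removes ISG15 from proteins and blocks the receptor, was at 123 CPM in interferon-high and 27.8 in other mature neutrophils of KO, 4.41-fold higher (3.54 to 5.50), and at 82.4 and 35.9 in WT, 2.29-fold (1.52 to 3.43). Herc6, the ISG15 ligase of the mouse, was 4.36-fold (3.28 to 5.78) and 2.17-fold higher (1.28 to 3.65). Irf7, which amplifies type I interferon, was 2.19-fold (1.86 to 2.56) and 1.86-fold higher (1.44 to 2.39). The receptor gene Ifnar1 was at 77.6 in interferon-high and 69.9 in other cells of KO and at 67.7 and 74.9 in WT, and Ifnar2 at 147 and 122 in KO and at 78.7 and 98.8 in WT. Without the highest doublet scores Ifnar1 was at 83.2 and 73.4 in WT, so that its WT direction turned. On the list of interferons and receptors 6 of 26 genes were measured, and 0 passed 1.5-fold in both libraries. Myl4, a myosin light chain, and Ly6a, which encodes the surface protein SCA-1, were also among the 10 genes with the highest ratios, Myl4 at 14.3 and 6.08 in KO and at 56.8 and 17.4 in WT, and Ly6a at 33.9 and 12.3 in KO and at 51.3 and 24.6 in WT. Both reversed direction in 1 of the libraries under some settings. Without the highest doublet scores Myl4 was at 10.9 and 1.48 in KO and at 7.80 and 4.32 in WT. Ly6a was then at 16.8 and 5.93 in KO and at 2.60 and 9.35 in WT.

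**Figure D2:**
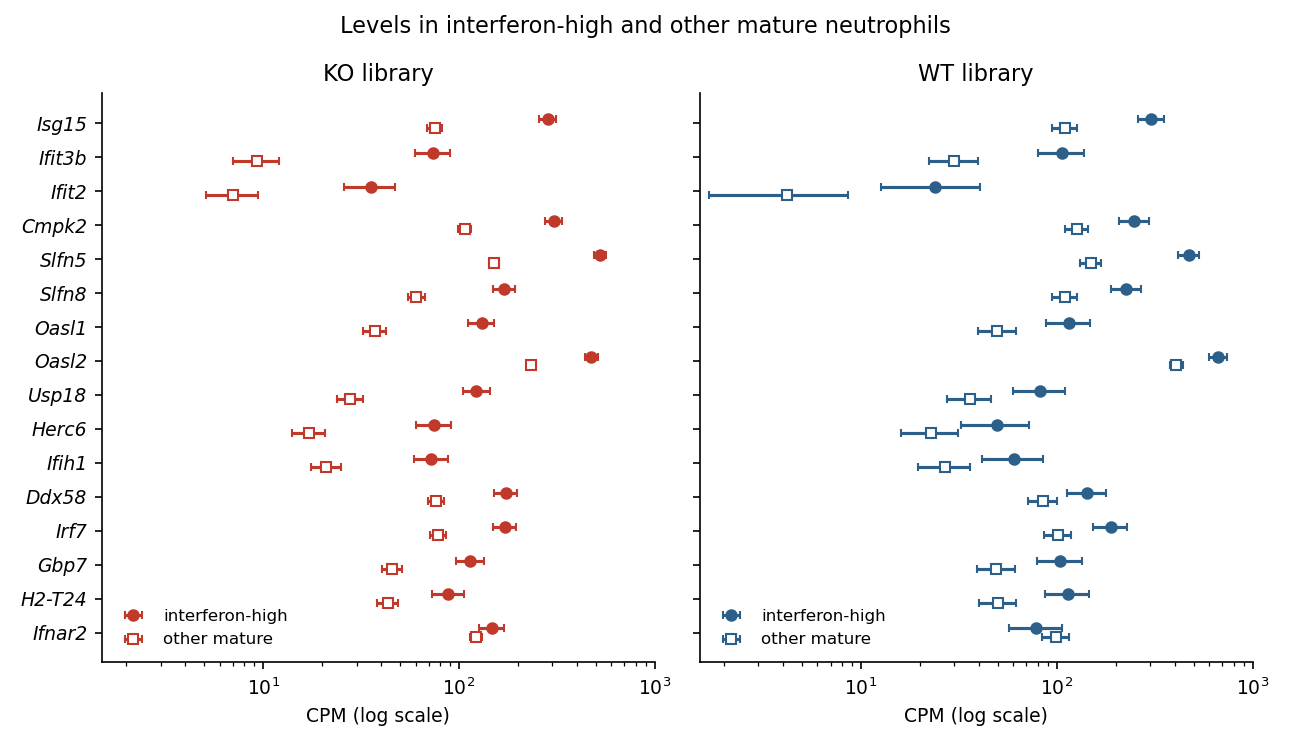
Levels of 16 genes (rows) in CPM on a log scale, in interferon-high (filled circles) and other mature neutrophils (open squares) of the KO library (left) and the WT library (right). Bars are 95% Poisson intervals, counting error only; the pairs stand apart for the interferon-stimulated genes, as for Isg15 (284 and 75 in KO, 304 and 110 in WT), and overlap or nearly so for the receptor gene Ifnar2.

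DNA-sensing Ifi200 genes and Xaf1, which promotes cell death, were higher in 3 of 8 measured, among them Ifi204 at 243 CPM in interferon-high and 94.7 in other mature neutrophils of KO and at 339 and 182 in WT. PARP, TRIM and nuclear body genes were higher in 8 of 31. MHC class I genes differed less: 2 of 20 passed in both libraries, with medians of 0.20 in KO and 0.20 in WT on the log2 scale. H2-T24, a nonclassical class I gene, was 2.04-fold higher in KO interferon-high cells (1.63 to 2.54) and 2.26-fold in WT (1.60 to 3.17). On the list of Ifi27 and Ifi44 genes 3 of 7 were measured and 0 passed, with medians of 0.45 in KO and -0.06 in WT. Its most abundant gene, Ifi27l2a, was at 1527 in interferon-high and 1120 in other cells of KO and at 3869 and 3433 in WT, ratios of 1.36 (1.30 to 1.43) and 1.13 (1.07 to 1.18). Cd274, which encodes the T cell inhibitor PD-L1, was the gene of 17 cytokine and chemokine list genes that passed, at 38.4 and 19.5 in KO and at 27.5 and 14.4 in WT, where the interval of its ratio reached 0.932 to 3.79.

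Within the mature neutrophils several other interferon genes were higher in cells with more gate UMIs, and some were not so at each step. Isg15 stood at 59.0, 127, 218, 284 and 771 CPM in KO cells with 0, 1, 2 to 3, 4 to 7 and 8 or more gate UMIs, and at 92.4, 154, 213, 478 and 752 in WT. Slfn5 stood at 131, 215, 419, 625 and 1042 in KO over the same bins, and at 119, 226, 339, 651 and 1393 in WT. Each step was upward for both genes in both libraries. Usp18 stood at 23.2, 42.8, 78.9, 129 and 432 in KO, and in WT at 28.3, 55.4, 53.2, 130 and 251. Ifi27l2a stood at 1093, 1210, 1493, 1659 and 1397 in KO and at 3165, 4118, 3435, 4758 and 5794 in WT, and Ifih1 at 28.3, 23.5, 60.7, 43.4 and 111 in WT. The top bin held 40 KO and 16 WT cells. Retnlg, a neutrophil gene outside the response, stood at 28111, 30662, 33075, 36559 and 26509 in KO, upward over the first 4 bins and lowest in the top one, and at 40796, 43481, 41842, 40854 and 34989 in WT.

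**Figure D3:**
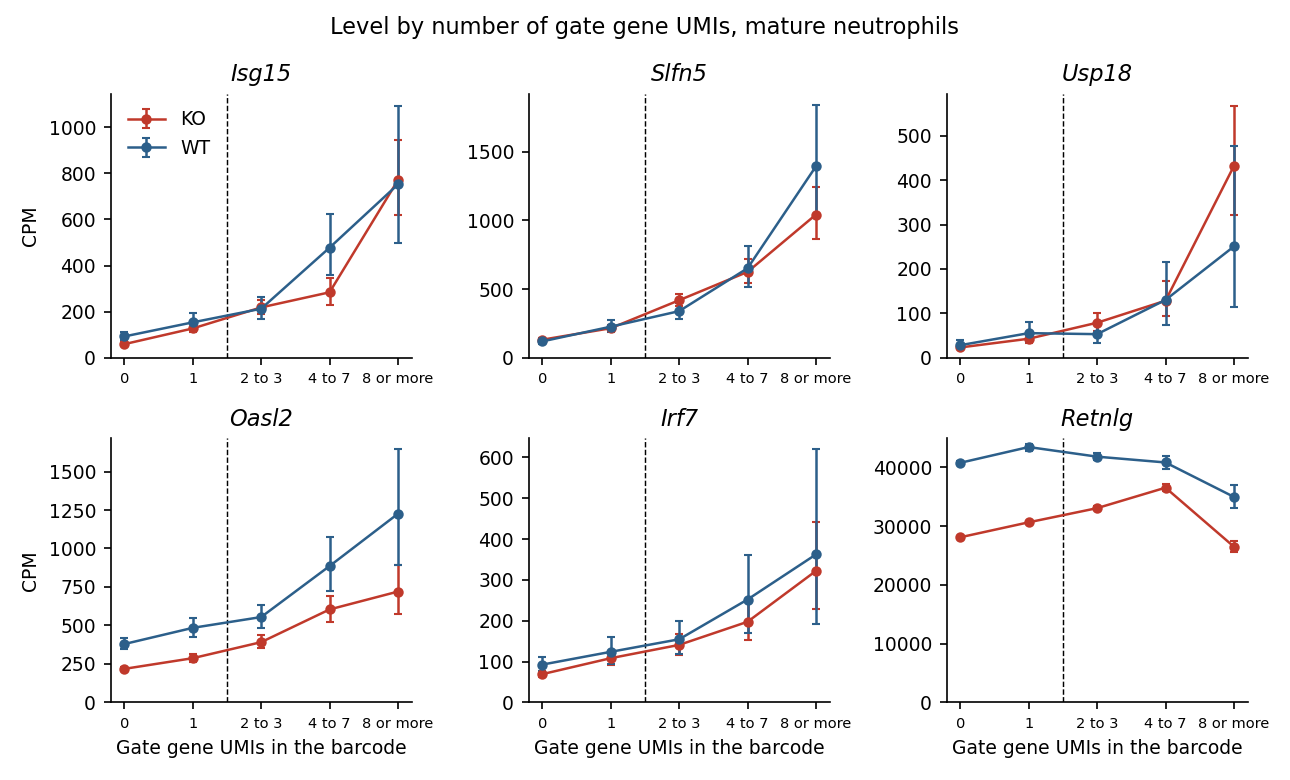
Level of 6 genes in CPM (vertical axes, from 0) in mature neutrophils grouped by their number of gate gene UMIs (horizontal axes), with KO in red and WT in blue; bars are 95% Poisson intervals and the dashed line marks the rule. Isg15 went up over the bins to 771 in KO and 752 in WT, whereas Retnlg was lowest in the top bin of each library, at 26509 in KO and 34989 in WT.

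By Isg15, the cells that Rsad2 alone placed in the group lay near its lower edge. Isg15 was at 157 CPM in the 274 KO and 167 in the 167 WT cells with Rsad2 as their only gate gene, and at 398 in the 288 KO and 476.5 in the 142 WT cells with 2 or 3 gate genes, against 59.0 in KO and 92.4 in WT cells with 0 gate UMIs. Just outside the rule, cells with 1 gate UMI had 127 in KO and 154 in WT, and just inside, cells with exactly 2 had 187 and 197. Other genes can differ from Isg15 in this. In KO, Cmpk2 was at 280 CPM in the cells with Rsad2 alone and at 224 in those with exactly 2 gate UMIs. Set against cells with none of the gate genes, cells with 2 or 3 of them had 62 of 122 measured interferon genes past 1.5-fold in both libraries, with medians of 0.90 in KO and 0.81 in WT.

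Genes of maturation, secondary granules and the oxidase did not pass 1.5-fold in both libraries. Over all 8224 measured genes 1.11% were higher and 3.82% lower in both. A count of 0 or 1 in lists as short as those below therefore does not set them apart from other genes. The same holds for the lists of receptors, of Ifi27 and Ifi44 genes and of cytokines above. Of 29 genes of neutrophil maturation and egress 0 passed 1.5-fold in both libraries, with medians of 0.20 in KO and -0.01 in WT. The count was also 0 for 19 secondary and gelatinase granule genes (medians 0.09 and 0.05), a list that includes Ngp, Camp and Ltf, which the rule limits in both groups. It was 0 for 7 genes of the NADPH oxidase (0.04 and -0.03), 17 immediate early genes (0.07 and 0.04), 12 genes of the BCL2 family (0.04 and -0.16) and 10 stefin and WFDC genes (-0.11 and 0.00). Among 21 NF-kB targets and feedback genes 1 passed, and among 12 toll-like and calprotectin receptors 1 passed. Of 11 transcription factors of granulocytes and monocytes 1 was lower.

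Primary granule genes, the earliest granule genes of the lineage, were lower in interferon-high cells, in 7 of 11 measured, with medians of -1.74 in KO and -2.01 in WT. With cells thinned to 800 UMIs 3 of 11 were lower in both libraries, with medians of -1.15 in KO and -0.10 in WT. Elane, the gene of neutrophil elastase, was at 304 CPM in interferon-high and 1447 in other mature neutrophils of KO, and at 40.3 and 730 in WT. Mpo, the gene of myeloperoxidase, was at 368 and 1078 in KO and at 65.9 and 552 in WT. These transcripts lay in few cells: 6.6% of KO and 5% of WT interferon-high cells had an Elane UMI, and 1 barcode held 38.9% of the Elane UMIs of KO interferon-high cells. Where barcodes with 2 or more UMIs of B lineage, T, NK, plasmacytoid dendritic, erythroid, megakaryocyte, basophil or progenitor markers were left out, a setting chosen after the data were seen whose progenitor markers include Mpo and Elane, 0 of 8 measured primary granule genes passed. Progenitor markers as a whole stood at 1050 CPM in interferon-high and 4008 in other mature neutrophils of KO, and at 174 and 1922 in WT, and their part in the difference was not tested. The 19 cell cycle genes had medians of -0.76 in KO and 0.29 in WT. Without the highest doublet scores 10 of the 19 were lower in both libraries and the medians were -0.69 in KO and -1.23 in WT, so that the WT direction turned.

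**Figure D4:**
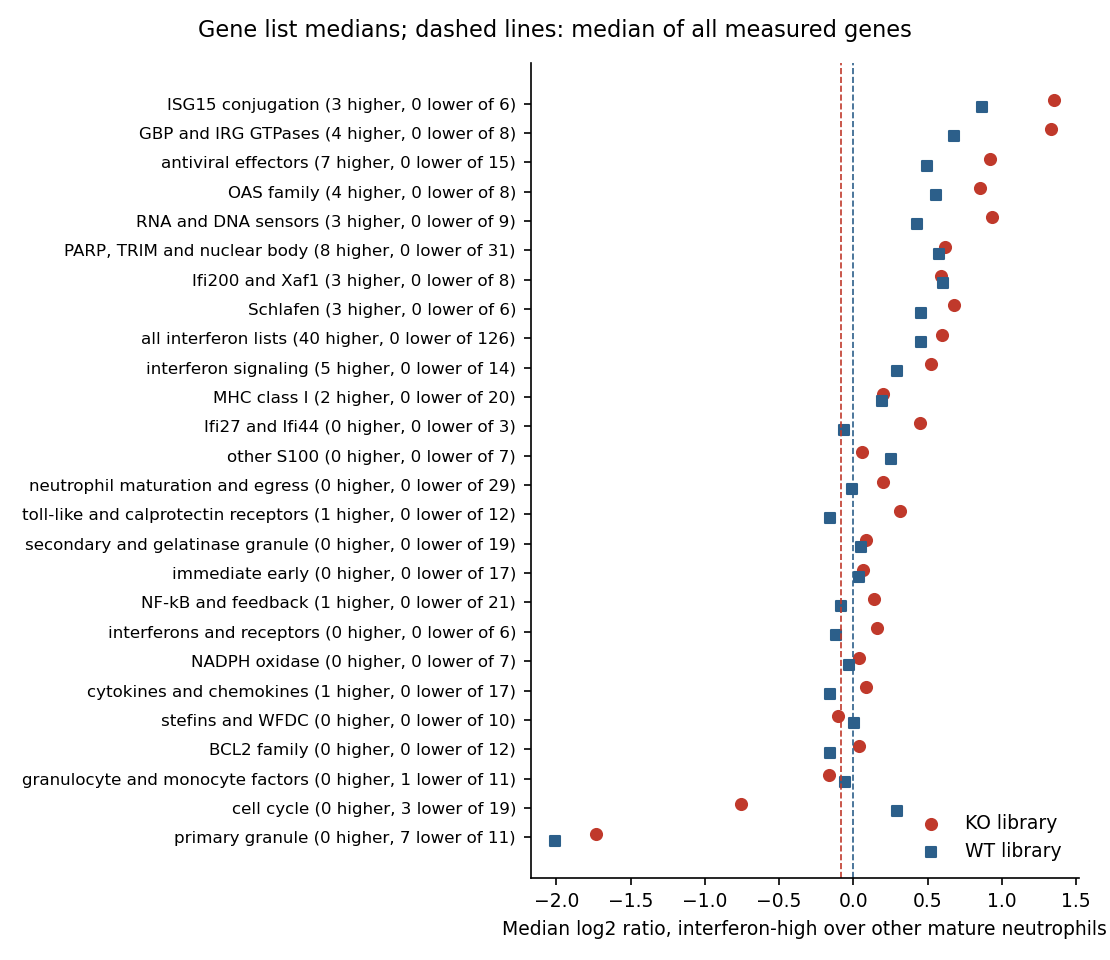
Median log2 ratio of interferon-high over other mature neutrophils for each gene list (rows, with the number of measured genes past 1.5-fold in both libraries), KO as red circles and WT as blue squares; dashed lines mark the medians of all measured genes, -0.09 in KO and -0.00 in WT. The 11 interferon lists lie to the right in KO, from MHC class I at 0.20 to ISG15 conjugation at 1.35. In WT they do too, except the Ifi27 and Ifi44 list of 3 measured genes at -0.06. Primary granule genes lie far to the left at -1.74 and -2.01.

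Between the genotypes, interferon-high cells of KO and WT differed in some interferon genes. Of 4313 genes with at least 50 UMIs in these cells, 319 were at least 1.5-fold higher in KO, or 7.4%, and 425 lower, or 9.85%. In counts simulated at this depth, 6.67% of genes without a change passed 1.5-fold, both directions together, from counting error alone. Not every gene counted here therefore differs between the libraries. With at least 200 UMIs per gene 4.5% of 1621 were higher and 3.76% lower. Without the barcodes of highest doublet score, and again with at least 50 UMIs, the split turned, with 514 higher (13.7%) and 259 lower (6.89%) of 3759. Of 103 measured interferon list genes, 8 were higher and 17 lower in KO interferon-high cells, with a median log2 ratio of -0.13. Without those barcodes 8 were higher and 21 lower of 96, with a median of -0.20. On the scale of all UMIs, where WT totals include S100a8, 15 were higher and 10 lower of the 103 and the median was 0.03. The sign of this median thus depends on the scale, which shifts the log2 ratio of every gene by the same amount. Of all 4313 genes, 564 were higher on that scale (13.1%) and 292 lower (6.77%). In the other mature neutrophils 5 of 122 were higher and 36 lower in KO, with a median of -0.28, beside 7.08% higher and 8.58% lower of 7801 genes. The difference between the 2 kinds of cells was not tested, and the rule itself sets the gate genes of each kind within bounds.

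For 4 genes that are high in the group the ratio between the genotypes was near 1 with all barcodes kept. Isg15 was at 284 CPM in KO and 304 in WT interferon-high cells, a ratio of 0.935 (0.777 to 1.13), and at 307 and 406 without the highest doublet scores. Slfn5 was at 526 and 474 (ratio 1.11, 0.960 to 1.28), and Oasl1 at 130 and 115 (1.13, 0.842 to 1.53). Irf7 was at 171 and 189 (0.907, 0.715 to 1.16). The intervals of these 4 ratios include 1, which does not show that the levels are equal. Without the highest doublet scores the Isg15 intervals, 276 to 340 in KO and 344 to 475 in WT, no longer overlapped. Slfn5 was then at 558 in KO and 611 in WT and Oasl1 at 135 and 161, both turned to lower in KO, and each kept its direction in 11 of 16 settings. In the other mature neutrophils Isg15 was at 75 in KO and 110 in WT, Irf7 at 78.2 and 101, and Oasl1 at 37.1 and 49.7, each lower in KO, while Slfn5 stood at 151 and 149.

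A set of interferon genes was lower in KO than in WT, in interferon-high cells and in the other mature neutrophils, where the interval for Stat2 included equal levels (1.41 times lower, 0.993 to 1.99). Ifi27l2a (chr12:103442167-103443680), an interferon-induced membrane protein, was at 1527 CPM in KO and 3869 in WT interferon-high cells, 2.53 times lower in KO (2.38 to 2.69), and at 1120 and 3433 in the other mature neutrophils, 3.06 times lower (2.96 to 3.17). It was seen in 67.0% of KO and 88.8% of WT interferon-high cells. Ifit3, a gene of the rule, was at 105 in KO and 233 in WT, 2.20 times lower (1.72 to 2.82). Of the Ifi200 and Xaf1 list 3 of 5 measured were lower in KO, among them Ifi209 at 23.4 and 82.4 (3.53 times lower, 2.18 to 5.77). Without the highest doublet scores 2 genes of this list were measured and 1 was lower, with a list median of -0.31 against -1.28. With cells thinned 1 was measured and 0 passed 1.5-fold. Ifi209 was at 18.5 in KO and 49.4 in WT without the highest doublet scores, on too few UMIs to count as measured. The nonclassical class I gene H2-Q6, whose near-identical H2-Q neighbors can share its reads, was at 38.4 and 108 (2.81 times lower, 1.90 to 4.17). Stat2 was at 37.7 and 78.7 (2.09 times lower, 1.36 to 3.21), Uba7, the enzyme that activates ISG15, at 39.9 and 87.9 (2.20 times lower, 1.46 to 3.32), and Slfn4 at 619 and 1005 (1.62 times lower, 1.45 to 1.81). Oasl2 was at 474 and 668 (1.41 times lower, 1.24 to 1.61), and at 499 and 853 without the highest doublet scores, past 1.5-fold. These 8 genes kept their direction under all 16 alternative settings tried.

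Fewer interferon genes were higher in KO interferon-high cells. Igtp, an immunity-related GTPase, was at 65.6 CPM in KO and 29.3 in WT, 2.24-fold higher (1.30 to 4.09), on 16 UMIs in WT. Igtp and Irgm2 overlap on the same strand of chromosome 11, so their UMIs can have been exchanged or dropped by the counting. All 6 measured GTPase genes lay above 0 on the log2 scale and 2 passed 1.5-fold. Without the highest doublet scores 5 of 6 lay above 0, and the list median moved to 0.10 against 0.46. Usp18 was at 123 in KO and 82.4 in WT, 1.49-fold higher (1.07 to 2.12), under the 1.5-fold mark. Herc6 was at 74.6 and 49.4, 1.51-fold higher (0.978 to 2.40), and at 80.6 and 57.2 without the highest doublet scores, under 1.5-fold. The receptor gene Ifnar2 was at 147 and 78.7, 1.87-fold higher (1.34 to 2.66). In the other mature neutrophils all 6 ISG15 conjugation genes lay below 0, and of 7 measured GTPase genes 3 lay above 0 and 4 below. There, without the highest doublet scores, Usp18 was at 28.6 in KO and 40.3 in WT and Herc6 at 17.4 and 20.1, both lower in KO. Igtp was at 26.0 and 20.9 and Ifnar2 at 123 and 97.1, both higher in KO.

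**Figure D5:**
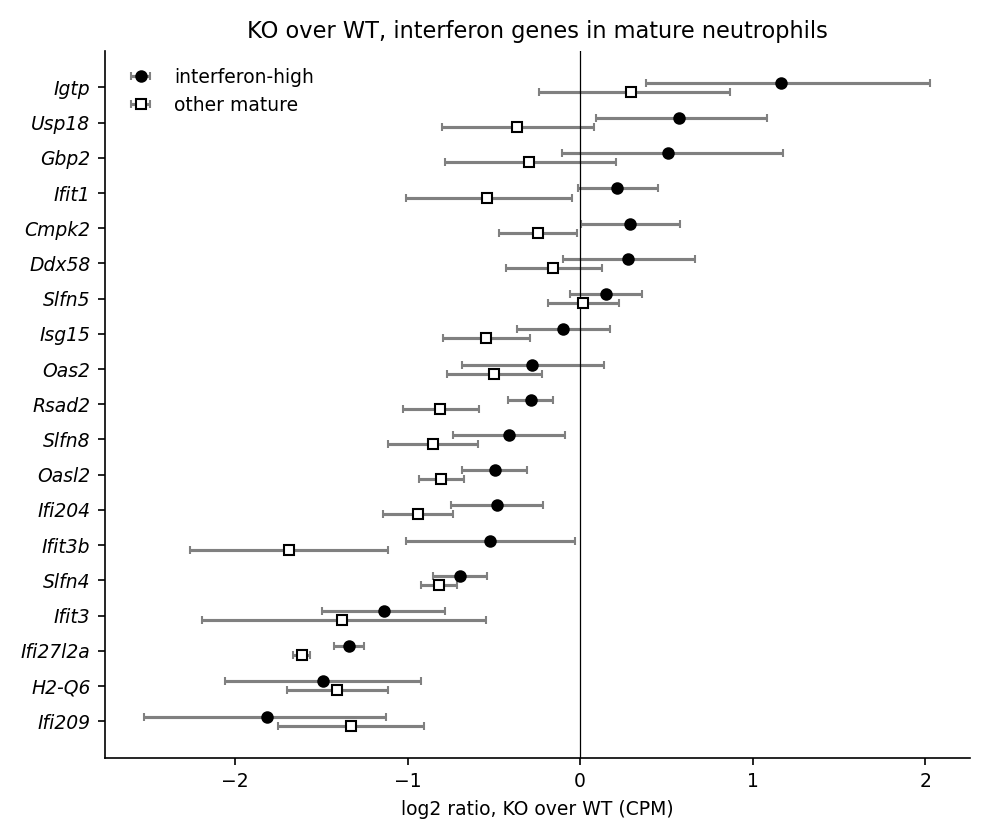
Log2 ratio of KO over WT (horizontal axis, from CPM) for 19 interferon genes (rows) in interferon-high (filled circles) and other mature neutrophils (open squares), with 95% conditional intervals for counting error only. Ifi27l2a lies at -1.34 in interferon-high and -1.62 in other mature neutrophils, and Igtp at 1.16 and 0.30.

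Outside the interferon lists, S100a6 and part of the stefins were higher in KO interferon-high cells and in KO other mature neutrophils. Of 5 other S100 genes measured in interferon-high cells 1 was higher and 2 were lower in KO, and of 7 measured in the other mature neutrophils 4 were higher and 0 lower. S100a10 was 1 of the 2 lower genes. Without the highest doublet scores it was at 18.5 CPM in KO and 15.6 in WT interferon-high cells, so that its direction turned. S100a6 (chr3:90612882-90624181), which lies in the same gene cluster as S100a8, was at 40312 CPM in KO and 16463 in WT interferon-high cells, 2.45-fold higher (2.39 to 2.50), and at 37516.5 and 17027 in the other cells, 2.20-fold (2.18 to 2.23). Of 10 stefin and WFDC genes, which include cysteine protease inhibitors with near-identical copies, 5 were higher and 0 lower in KO. Stfa3 was at 151 and 53.1 (2.84-fold, 1.92 to 4.35), with 1 barcode holding 37.9% of its WT UMIs, and BC100530 at 718 and 278 (2.58-fold, 2.17 to 3.08), with 1 barcode holding 32.9% of its WT UMIs. In the other mature neutrophils BC100530 was at 772 in KO and 54.5 in WT, 14.2-fold higher (11.5 to 17.6). Within WT it was thus higher in interferon-high than in other cells. Without the highest doublet scores it was at 377 and 62.6 there, and at 759 and 815 within KO. Mrgpra2a, a receptor gene of the Mas-related family, was at 70.8 in KO and 22 in WT interferon-high cells (3.22-fold, 1.76 to 6.46). Acvrl1, a receptor of the TGF-beta family, was at 101 and 38.5 (2.63-fold, 1.65 to 4.38). The immediate early factor Egr1 was at 239 and 110 (2.17-fold, 1.65 to 2.92). These genes were higher in KO under all 16 alternative settings.

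Elane, Prtn3 and Mpo were among the 10 genes with the highest KO to WT ratio in interferon-high cells, at 304, 269 and 368 CPM in KO and 40.3, 43.9 and 65.9 in WT. Without the highest doublet scores Prtn3 was at 297 in KO and 28.6 in WT. Few cells carried them, with 1 barcode holding 30% to 38.9% of each in KO, and progenitor markers as a whole stood at 1050 in KO and 174 in WT interferon-high cells. Cell cycle genes were lower in KO in 8 of 10 measured, with a median of -1.08, but without the highest doublet scores 4 of 6 were higher and 0 lower, with a median of 0.98. Among the 10 genes with the lowest KO to WT ratio were the B lineage genes Vpreb3, Ebf1, Bach2 and Ly6d, beside B lineage markers at 272 in KO and 923 in WT interferon-high cells, with at least 2 of their UMIs in 2.20% of KO and 7.19% of WT cells. The part of these barcodes in the genes named was not tested.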

How the data were processed

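The authors deposited UMI counts per gene and barcode for 4 libraries, of which both bone marrow ones were used, in 31053 features that were summed to 31017 gene symbols. Per the file headers, the bone marrow matrices came from Cell Ranger 3.1.0. Software listed in the submitters' processing notes was Seurat 4.3.0, Cell Ranger 6.1.2 and R 4.2.1, with mm10 as the build. Whether the authors removed doublets or free RNA is not given in the sources used here.

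Barcodes were chosen by the rule given in the text, and the members and the gene lists were chosen with earlier results of these data known. Counts were summed over the barcodes of a group and divided by UMIs without S100a8 and S100a9. A gene was measured with at least 50 UMIs over the groups compared and called past 1.5-fold, in both libraries for interferon-high over other mature neutrophils. With 1 library per genotype no test was made. Intervals at 95% are exact binomial (Clopper-Pearson) for shares, Poisson for levels, conditional binomial for ratios of levels and log-normal (Katz) for ratios of shares. Only the intervals for ratios of levels were tried on simulated data. The counts were drawn from the Poisson model that these intervals assume. For KO over WT in interferon-high cells 95.9% of them held the true ratio. That checks the calculation, and does not show that real counts follow the model. Named genes were the gate genes, Isg15, S100a8 and S100a9, up to 4 genes of each list with the largest ratio, and the 10 highest and 10 lowest genes of each comparison with at least 100 UMIs and 50 CPM, of which a selection is given.

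Doublets were kept. The automatic threshold of Scrublet in scanpy 1.11.5 marked 0 of 10853 KO barcodes and 423 of 7964 WT barcodes (5.31%). The alternative without doublets therefore leaves out the highest scores by a share that grows with the number of barcodes. That share was 8.85% in KO and 6.50% in WT, or 961 in KO and 518 in WT, chosen once the data had been seen. Gene locations are from GENCODE M21 (GRCm38). Python 3.11.15, numpy 2.4.6, scipy 1.17.1, pandas 2.3.3 and matplotlib 3.10.9 were used.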

Additional observations from a re-analysis of the deposited data

Results flagged for a closer look

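The 4 genes given here had ratios of interferon-high over other mature neutrophils past 1.5-fold in opposite directions in the 2 libraries. There was 1 library per genotype and no test of the difference. Other named genes also pointed in opposite directions, such as Ifnar2 (log2 ratio 0.27 in KO and -0.33 in WT) and BC100530 (-0.10 and 2.35). S100a10, a calcium-binding partner of annexin A2, had a log2 ratio of -1.17 in KO and 0.75 in WT. Ccl5, a chemokine of T and NK cells, had -1.57 in KO and 0.99 in WT. The proliferation genes Top2a and Stmn1 had -0.71 and -0.70 in KO and 0.79 and 0.74 in WT. In WT interferon-high cells 1 barcode held 50.7% of the S100a10 UMIs, 41.7% of those of Ccl5, 28.5% of Top2a and 19.2% of Stmn1. Without the barcodes of highest doublet score the WT ratios were -1.42 for S100a10, -0.95 for Ccl5, -1.77 for Top2a and -1.25 for Stmn1.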

How the results depend on the processing

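The number of genes measured differed among the settings, so each count below is followed by its share of the genes measured in that setting. Of the interferon-high over other comparison, 91 of 8224 genes were higher (1.11%) and 314 lower (3.82%). Of KO over WT within interferon-high cells, 319 of 4313 were higher (7.4%) and 425 lower (9.85%). The KO to WT share among mature neutrophils, 0.778, was 0.583 with cells thinned, 0.553 with the gate as a share and 0.939 with the gate on Isg15. Genes higher in interferon-high cells numbered 154 with at least 3 gate UMIs (1.87%), 241 with at least 4 (2.93%) and 142 with cells thinned (2.53%). They numbered 44 with at least 200 UMIs per gene (0.875%), 1734 with at least 1 (13.7%), and 166 with 2 or 3 gate genes against none (2.21%). Genes lower there numbered 196 with granule genes under 1% (2.53%), 514 without high doublet scores (6.8%) and 63 with at least 200 UMIs (1.25%). They numbered 147 without barcodes of other cell types (2.85%), and 133 when monocyte markers were not used for that removal (2.07%). Genes higher in KO numbered 514 without high doublet scores (13.7%), 196 without other cell types (10.7%) and 93 thinned (8.02%). They numbered 564 on the scale of all UMIs (13.1%), 73 with at least 200 UMIs (4.5%) and 1150 with at least 1 (9.17%). Genes lower in KO numbered 220 with at least 3 gate UMIs (7.6%), 167 with at least 4 (8.25%) and 234 with S100a9 at least 8% (6.66%). They numbered 259 without high doublet scores (6.89%), 150 without other cell types (8.18%) and 211 without them but monocyte markers not used (6.36%). They numbered 102 thinned (8.8%), 61 with at least 200 UMIs (3.76%), 4766 with at least 1 (38%), and 237 with 2 or 3 gate genes (8.56%). The median of the interferon lists in WT was 0.65 with at least 4 gate UMIs and 0.67 thinned, and with 2 or 3 gate genes it was 0.90 in KO and 0.81 in WT. For KO over WT it was 0.032 on the scale of all UMIs. The cell cycle median for KO over WT reversed to 0.0081 with S100a9 at least 8%, 0.98 without high doublet scores, 0.14 without other cell types, 0.019 with monocyte markers not used, and 0.13 thinned. Among single genes over other mature neutrophils, reversed log2 values in the KO library were -0.14 and -1.83 for Myl4 (at least 3 and 4 gate UMIs), 0.020 for Elane and 1.10 for Ccl5 (without other cell types), 0.018 for Ccl5 (S100a9 at least 8%) and 0.18 for Stmn1 (thinned). In the WT library they were, for S100a10, -0.40 and -1.06 (at least 3 and 4 gate UMIs), -1.02 (S100a9 at least 8%), -0.38 (granule genes under 1%), -1.42 (without high doublet scores), -0.45 and -1.04 (without other cell types, with and without monocyte markers), -2.15 (thinned) and -0.24 (mean over cells). For Top2a they were -0.58, -0.56, -1.77, -0.35 and -1.10 (at least 4 gate UMIs, S100a9 at least 8%, without high doublet scores, without other cell types, thinned). Stmn1 had -0.18, -0.44, -0.33, -1.25 and -0.64 (at least 3 and 4 gate UMIs, S100a9 at least 8%, without high doublet scores, thinned). Ccl5 had -0.21, -0.95, -0.67, -0.87 and -0.75 (S100a9 at least 8%, without high doublet scores, without other cell types with and without monocyte markers, thinned). Ly6a had -1.85 and -1.10 and Prtn3 0.074 (Ly6a without high doublet scores, and both with monocyte markers not used). For KO over WT, reversed values were 1.17, 2.69, 0.23, 2.70 and 0.020 for Ly6a (S100a9 at least 8%, without high doublet scores, without other cell types with and without monocyte markers, mean over cells), 0.49 and 0.59 for Myl4 (without high doublet scores, without other cell types), 1.02 and 1.02 for Top2a and Stmn1 and 0.24 for S100a10 (without high doublet scores), 0.45 for Stmn1 and 0.32 for S100a10 (thinned), 0.83 and 0.59 for Ccl5 (S100a9 at least 8%, without other cell types), -0.24, -0.47 and -0.27 for Mpo (without other cell types with and without monocyte markers, thinned) and -0.13 for Prtn3 (monocyte markers not used). The cause was not tested. Of the values that answer a comparison, 90 stayed within the limits used for the same result and 35 moved. The removal of other cell types with monocyte markers not used and the contrast of 2 or 3 gate genes against none were chosen after the data were seen. No paired analysis was possible because each genotype had 1 library. Depth limits genes under about 50 UMIs, and intervals cover counting error only.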
